A study of Homo sapiens with 6 samples.

Results

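The AP-1 transcription factor genes were examined in ChIP-seq peak lists of histone H3 lysine 27 acetylation (H3K27ac) and histone H3 lysine 4 trimethylation (H3K4me3) from HSC3 cells. The 10 genes were FOS, FOSB, FOSL1, FOSL2, JUN, JUNB, JUND, ATF3, BATF2 and BATF3, out of 20090 protein-coding genes annotated in GRCh37 (hg19), and all 10 were found. Every peak region that overlapped the gene body or the 5 kb upstream of the gene by at least 1 bp was taken, which gave 23 of 19705 H3K27ac regions and 36 of 58582 H3K4me3 regions in siCONT cells, and 17 of 17672 and 37 of 56943 in siDLEU1 cells. The genes were chosen by family and not by their values in these lists, though earlier results of these data were known.

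HSC3 is an established oral squamous cell carcinoma (OSCC) cell line. Cells transfected with a control siRNA (siCONT) were compared with cells transfected with an siRNA against DLEU1 (siDLEU1), a long non-coding RNA overexpressed in OSCC, and both were collected 72 h after transfection. The comparison asked how depletion of DLEU1 alters the marks of active promoters. There was 1 library for each siRNA and mark, with a single siRNA sequence and a single cell line in the lists, so the differences below could not be checked against replicates or tested. Depletion of DLEU1 itself cannot be read from peak lists.

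AP-1 is a dimer of basic leucine zipper (bZIP) proteins. JUN proteins pair with themselves, with FOS proteins or with ATF and BATF proteins, and the dimer binds the TPA response element (TRE) or the related cAMP response element (CRE). Many of these genes are immediate early genes, switched on by ERK, JNK and p38 signalling without new protein synthesis, and in squamous epithelium AP-1 regulates proliferation, migration and keratinocyte differentiation. H3K27ac marks active promoters and enhancers, and H3K4me3 marks promoters.

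The starts of 8 of these genes, all but FOSL1 and BATF2, were searched for sequence features that the choice of genes did not use. The 250 bases before the canonical transcription start site (TSS) of each of the 8 were read from GRCh37 and searched on both strands for the letters of several motifs. The motif TGACGT, the core of a CRE, was present in 5 of 8 (FOS, FOSB, FOSL2, JUND and ATF3), against 8.57% of 19811 promoters of the same length. The letters TATAAA were present in 4 of 8 (FOS, FOSB, JUNB and ATF3), against 9.28%. TGACGT, and the motif TGACATCA described next, were added to the search after the sequences had been read, and every full CRE counted next also holds TGACGT. A full CRE, TGACGTCA, was found in JUND alone at −200 to −193 (2.4% of promoters), and TGACATCA, a TRE-like element, in JUN alone at −67 to −60 (1.91% of promoters). The TRE itself, as TGACTCA or TGAGTCA, was found in 0 of 8 (3.06% of promoters), as was the STAT motif TTCNNNGAA (5.69% of promoters). Positions are counted from the TSS, with −1 the base before it.

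The 4 sequences below are shown because they carry these motifs, which stand in capitals. They read 5′ to 3′ on the strand of the gene and end at −1. In GRCh37 they lie at chr14:75745281-75745530 (FOS, plus strand), chr1:59249720-59249969 (JUN, minus strand), chr19:18392433-18392682 (JUND, minus strand) and chr1:212781853-212782102 (ATF3, plus strand).
FOS: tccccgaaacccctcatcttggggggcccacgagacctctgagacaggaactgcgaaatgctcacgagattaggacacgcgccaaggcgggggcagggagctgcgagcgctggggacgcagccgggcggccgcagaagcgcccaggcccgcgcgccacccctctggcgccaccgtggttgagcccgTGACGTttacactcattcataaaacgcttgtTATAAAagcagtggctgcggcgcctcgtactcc
JUN: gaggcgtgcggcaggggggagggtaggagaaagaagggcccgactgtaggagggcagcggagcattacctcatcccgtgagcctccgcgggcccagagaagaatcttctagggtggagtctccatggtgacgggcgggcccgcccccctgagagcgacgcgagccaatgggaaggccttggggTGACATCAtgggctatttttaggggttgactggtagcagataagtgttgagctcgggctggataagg
JUND: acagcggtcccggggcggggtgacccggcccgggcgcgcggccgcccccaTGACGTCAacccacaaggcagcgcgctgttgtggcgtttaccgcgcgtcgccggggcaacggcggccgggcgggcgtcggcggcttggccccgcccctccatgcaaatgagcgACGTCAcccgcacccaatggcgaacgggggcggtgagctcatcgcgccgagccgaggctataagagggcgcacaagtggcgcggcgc
ATF3: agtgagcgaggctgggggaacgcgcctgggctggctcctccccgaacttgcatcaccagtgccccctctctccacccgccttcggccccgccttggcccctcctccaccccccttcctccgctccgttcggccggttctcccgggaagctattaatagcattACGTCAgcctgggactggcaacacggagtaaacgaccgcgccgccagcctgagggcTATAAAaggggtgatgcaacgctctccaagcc

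The CArG box, bound by serum response factor and central to the serum induction of FOS, was in none of the 250-base promoters (0 of 8 against 1.13% of promoters), but in 500 bases it was found in 2 of 8, FOS and FOSB, against 2.41% of 19810 promoters. In FOS it lies at −314 to −305, within the 90 bases below (plus strand, chr14:75745177-75745266, CArG box in capitals). In FOSB it lies at −274 to −265, and a full CRE lies at −325 to −318. The STAT motif was in 1 of 8 at 500 bases, BATF3 at −262 to −254, against 12.2% of promoters. The 200 bases around each siCONT H3K27ac summit of these genes were searched too. They held the STAT motif in 1 of 22, at FOS at −1852 to −1844, against 3.57% of all siCONT H3K27ac summits. A match of letters does not show that a factor was bound.
FOS upstream stretch: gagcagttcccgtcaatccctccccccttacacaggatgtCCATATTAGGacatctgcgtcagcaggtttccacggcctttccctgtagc

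Few of the regions at these genes ran across the canonical TSS. The windows also hold regions far from the TSS, as at FOSL2 and ATF3. Neither this share nor the overlap of the marks given next was counted over all regions. In siCONT cells, 2 of the 23 H3K27ac regions and 5 of the 36 H3K4me3 regions ran across the canonical TSS, and the other regions lay upstream or within the gene. Of the 23 H3K27ac regions, 21 overlapped an H3K4me3 region in the same cells, and of the 36 H3K4me3 regions, 21 overlapped an H3K27ac region. Of the 9 genes with H3K27ac in siCONT cells, 8 also carried H3K4me3. BATF3 carried H3K27ac alone, and BATF2 carried H3K4me3 alone. The promoters printed above for JUND and ATF3 lay wholly outside the regions of both marks in siCONT cells, and that of JUN almost wholly.

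**Figure D1:**
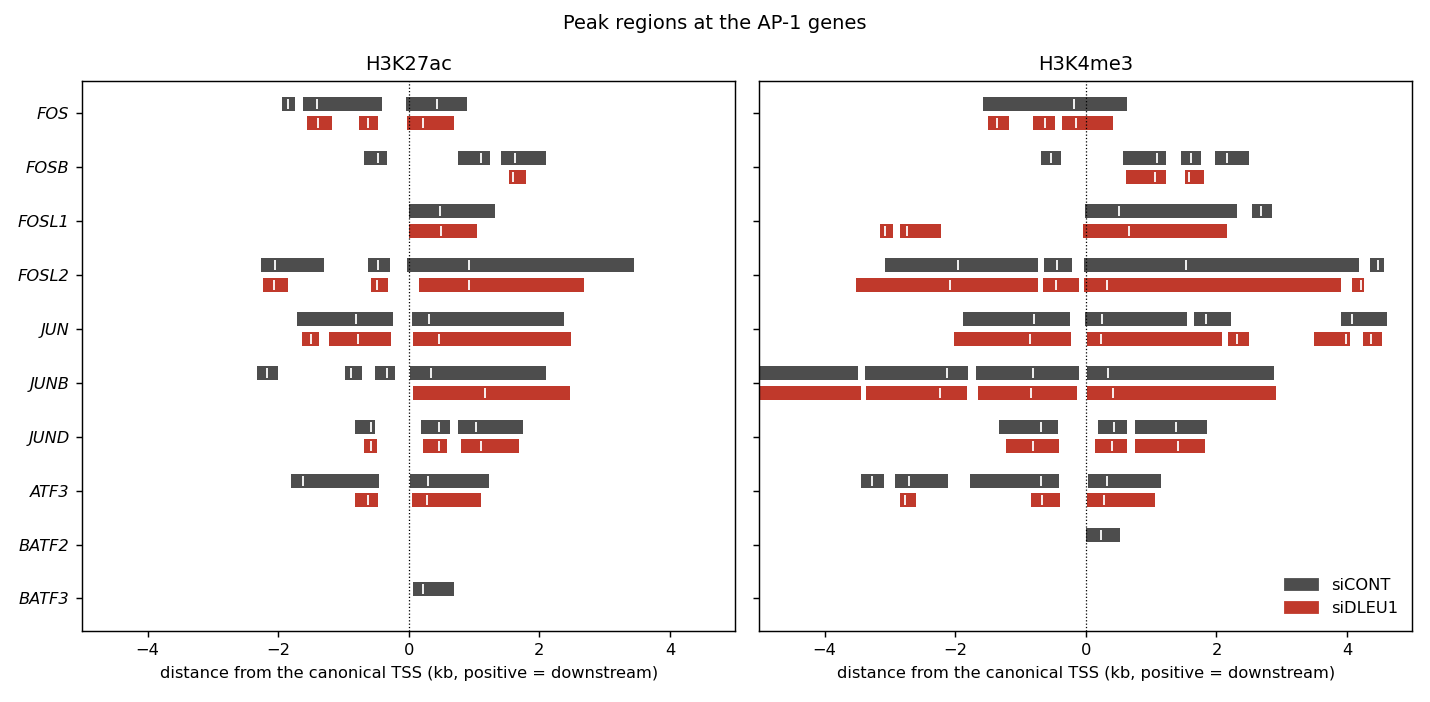
Peak regions of H3K27ac (left) and H3K4me3 (right) by distance from the canonical TSS in kb, drawn from 5 kb upstream to 5 kb downstream, with siCONT regions in grey, siDLEU1 regions in red and summits as white ticks. Regions farther out, as in FOSL1, FOSL2 and ATF3, are not drawn. The 3 short upstream regions at JUNB and the regions at BATF3 and BATF2 are grey only.

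Levels of H3K27ac at the AP-1 genes were lower in siDLEU1 cells, as they were over the whole H3K27ac list. The regions numbered 23 in siCONT and 17 in siDLEU1 cells, and the length they covered was 21813 bp and 14144 bp, a ratio of 0.648 against 0.744 over all protein-coding genes. Covered length was shorter in 9 of the 9 genes with H3K27ac, a share that was not counted over all genes. The median ratio of a gene was 0.651 here and 0.763 over all genes with H3K27ac in siCONT cells. Covered length was shorter by over 1.5 times in 6 of 9 (FOS, FOSB, FOSL2, JUNB, ATF3 and BATF3), against 31.5% of all genes with H3K27ac. FOSL2, with a ratio of 0.665, and JUNB, with 0.651, were just past that limit. It was longer by over 1.5 times in 0 of 9, against 0.573% of all genes. Of the 23 siCONT regions, 15 (65.2%, 95% Wilson interval 44.9 to 81.2) were overlapped by a siDLEU1 region, against 77.8% of all siCONT regions. All 17 siDLEU1 regions lay over a siCONT region, against 98.8% of all siDLEU1 regions.

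**Figure D2:**
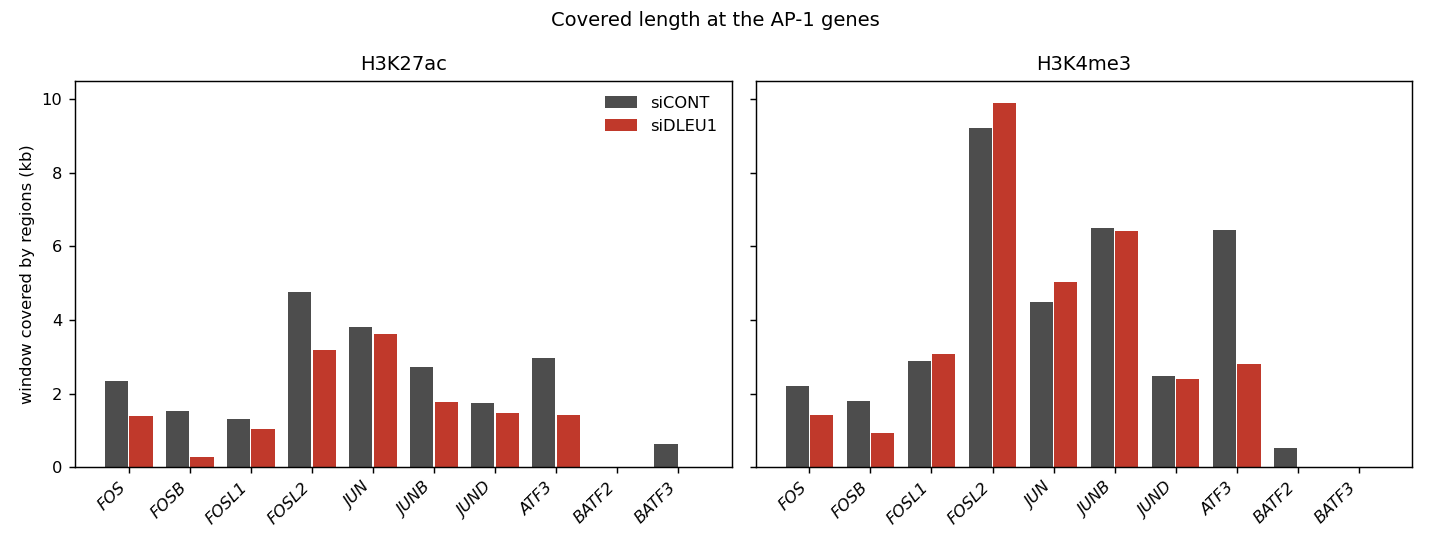
Length of each gene's window (gene body and 5 kb upstream) covered by peak regions in kb, for H3K27ac (left) and H3K4me3 (right), with siCONT in grey and siDLEU1 in red, 1 library per bar. H3K27ac bars are shorter in siDLEU1 at all 9 genes with H3K27ac, while H3K4me3 bars are shorter at 6 genes and taller at FOSL1, FOSL2 and JUN. Neither count was made over all genes.

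The 8 siCONT H3K27ac regions without a siDLEU1 counterpart were weak ones. They held 21 to 48 fragments at the summit and stood at most at the 31.3 percentile of the siCONT list by fragments and the 38.3 percentile by fold enrichment. Of these 8 regions, 3 lay upstream of JUNB (summits at −2175, −885 and −328), 2 at FOSB (at −470 upstream and +1107 in intron 1), 1 upstream of FOS (at −1851), 1 in the ATF3 gene at −41800 from its canonical TSS, and 1 was the only region of BATF3. BATF3, which encodes a partner of JUN in dendritic and T cells, thus had 622 bp of H3K27ac from 212872490 to 212873111 on chromosome 1, over exon 1 and intron 1 with 31 fragments, in siCONT cells and none in siDLEU1 cells. A gene with H3K27ac in siCONT and none in siDLEU1 cells was 1 of 9 here and 5.91% of all genes with H3K27ac. The reverse was seen at 0 of 1 gene, BATF2, and at 0.512% of all genes without H3K27ac in siCONT cells.

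The height of the marks was compared as the number of fragments at the highest summit of each gene, divided by the mean number of fragments per base in that library. This summit coverage corrects for depth but not for the share of fragments that lay in background, and its 95% intervals cover counting error only. Over the 12285 genes with H3K27ac in both lists the median ratio of siDLEU1 to siCONT was 0.617, and whether this reflects the cells or the enrichment of 1 library cannot be told apart with 1 library each. The 8 AP-1 genes had a median ratio of 0.562, from 0.476 at JUND to 0.937 at FOSL1. The ratio was under 1 at 8 of 8 genes, against 98.8% of all genes, and its interval lay wholly under 1 at 6 of 8, against 84.8%. It was over 1.5 times lower at 5 of 8, against 70.1% of all genes. It was over 1.5 times higher at 0 of 8, against 0.0733% of all genes. The share past 1.5 times is no higher than that of all genes, and JUN, with a ratio of 0.668, was just inside the limit. The highest summits of a gene need not lie at the same place in both lists, and at FOS, JUN and JUNB they lay farthest apart.

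Among the FOS genes, FOS and FOSL1 had the highest ratios, with intervals that overlap those of FOSB and FOSL2, and the difference was not tested. FOS, the prototype immediate early gene, had a summit coverage of 63.9 times the mean in siCONT and 54.8 in siDLEU1 cells, a ratio of 0.858 (0.644 to 1.14), which sets a summit at −1412 against one at +222. FOSL1 encodes FRA1, a FOS protein without a transactivation domain that is abundant in many squamous carcinomas, and had 78.0 and 73.0, a ratio of 0.937 (0.727 to 1.21). The intervals of both genes reach past 1 and lie above the median of all genes, and 96.5% and 98.0% of genes had a lower ratio. FOSB, an immediate early relative of FOS, had 51.8 and 29.2, a ratio of 0.564 (0.393 to 0.807). FOSL2, which encodes FRA2, had 77.3 and 43.3, a ratio of 0.560 (0.417 to 0.749). The starts of FOSL2-AS1 and of another annotated gene also lie in the FOSL2 window, within 1 kb of this siCONT region. At FOSB and FOSL2 the 2 libraries' intervals did not overlap, and both ratios lay near the median of all genes.

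The JUN genes, which supply the partner that every FOS protein needs, were all lower. JUN had the highest summit coverage of the 10 genes in siCONT cells, 86.7 with an interval that overlaps those of FOS, FOSL1, FOSL2, JUNB, JUND and ATF3, against 57.9 in siDLEU1 cells. Its ratio of 0.668 (0.513 to 0.867) sets the siCONT summit at −811 against the siDLEU1 summit at +462. JUNB, an antagonist of JUN at some promoters, had 69.9 and 38.1, a ratio of 0.545 (0.398 to 0.742). This ratio sets a siCONT summit at +342 against a siDLEU1 summit at +1163, and the start of HOOK2 also lies in the JUNB window. JUND, the JUN gene expressed most steadily in resting cells, had 71.3 and 33.9, a ratio of 0.476 (0.344 to 0.654). Only 4.26% of genes had a lower ratio than JUND, although its interval includes the median of all genes. Neighbours in the siDLEU1 order such as JUNB, ATF3 and JUND, between 38.1 and 33.9, do not differ beyond their counting error.

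ATF3, a stress-induced bZIP gene, had a summit coverage of 69.9 in siCONT and 35.0 in siDLEU1 cells, a ratio of 0.50 (0.362 to 0.686), and 7.44% of genes had a lower ratio. BATF3 had 20.8 in siCONT cells. BATF2, which encodes an interferon-inducible inhibitor of AP-1, had no H3K27ac region in either list.

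**Figure D3:**
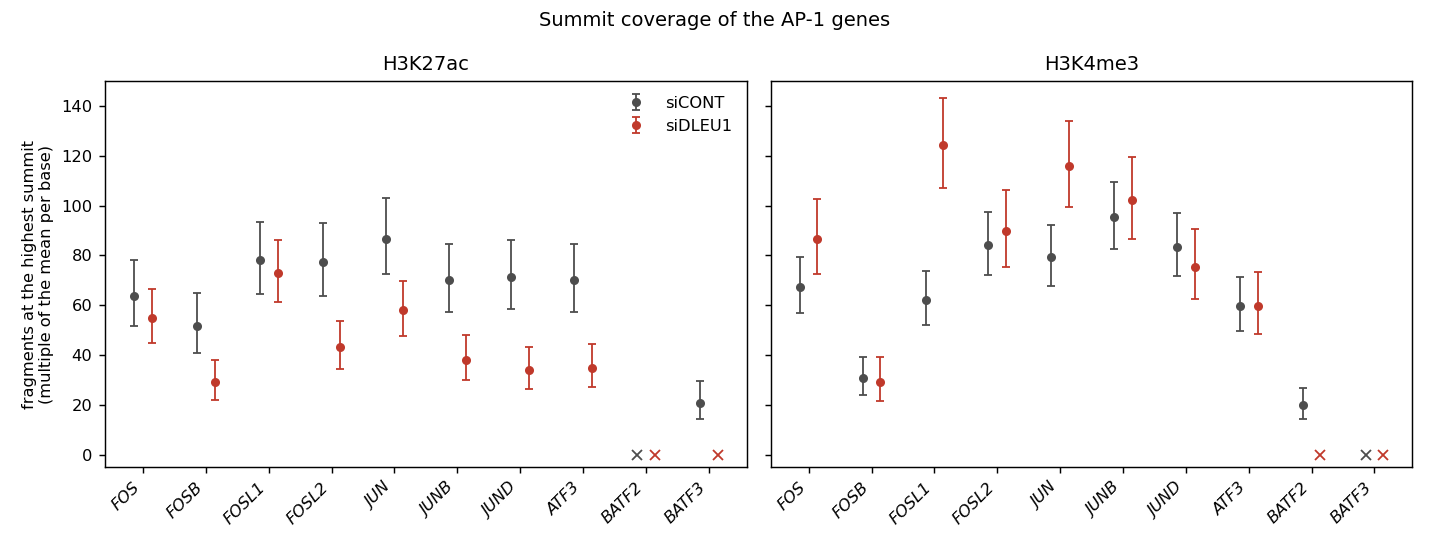
Summit coverage of each gene (fragments at the highest summit as a multiple of the library's mean per base) for H3K27ac (left) and H3K4me3 (right), with siCONT in grey and siDLEU1 in red. Bars are exact 95% Poisson intervals for counting error in 1 library, and a cross at 0 means no region. H3K27ac points are lower in siDLEU1 at 8 of 8 genes, and H3K4me3 at FOSL1 is 62.2 in siCONT and 124 in siDLEU1.

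The places within a gene were not equally low. At FOS, the upstream region with its summit at −1412 held 95 fragments in siCONT and at most 60 in siDLEU1 cells, a ratio of coverage of 0.490 (0.349 to 0.684), while the region over the TSS, exon 1 and intron 1 held 82 and 105, a ratio of 0.994 (0.737 to 1.34). The highest summit of FOS was therefore upstream in siCONT and at +222 in siDLEU1 cells. The ratio of the region over the TSS sets a siCONT summit at +428 against that siDLEU1 summit. At JUN, the upstream region with its summit at −811 held 129 and 93 fragments, a ratio of 0.560 (0.424 to 0.736), while the region in exon 1 held 92 and 111, a ratio of 0.936 (0.704 to 1.25). The exon 1 ratio of JUN sets a siCONT summit at +308 against a siDLEU1 summit at +462. The intervals of the upstream and downstream ratios did not overlap at FOS and overlapped slightly at JUN. The JUN window also holds the start of the antisense lncRNA LINC01135, and reads at the upstream region cannot be assigned to either gene.

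ATF3 and JUND showed other layouts. The ATF3 region with its summit at −1623 spanned 1350 bp in siCONT cells and held 83 fragments. In siDLEU1 cells it was met by a region of 354 bp with 39 fragments and its summit at −627. The ratio of 0.365 between them thus compares different places. The ATF3 region in exon 1 and intron 1 had the ratio of 0.50 given above. At JUND, where exon 1 is the only exon, the summits at +1029 and +465 had ratios of 0.476 and 0.614, and the weak upstream summit at −578, with 18 and 31 fragments, had 1.34 with an interval of 0.725 to 2.54 that includes both 1 and the median of all genes. Of the 15 matched siCONT regions, 14 had a ratio under 1, against 97.1% of all matched regions. Their median was 0.564 against 0.621 over all matched regions. In siDLEU1 cells 13 of 15 were narrower, a share that was not counted over all regions.

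**Figure D4:**
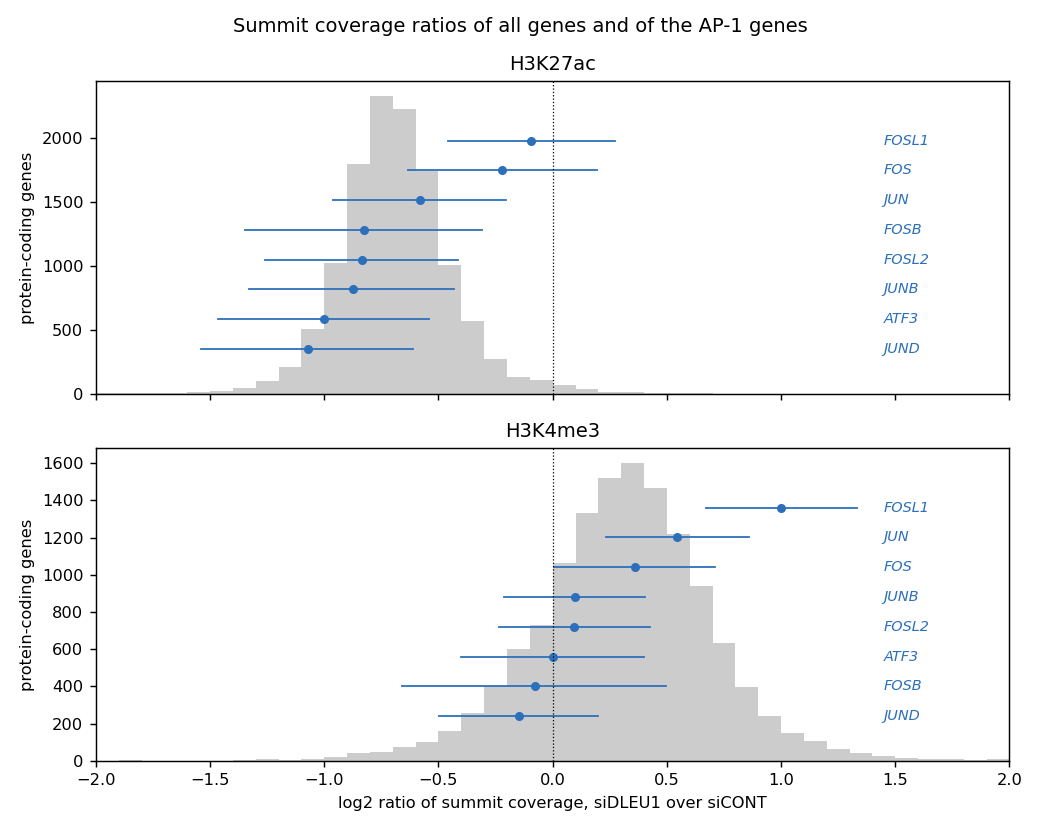
Log2 ratio of summit coverage, siDLEU1 over siCONT, of all protein-coding genes with a region in both lists (grey histogram, values beyond the axis in the end bins) for H3K27ac (top) and H3K4me3 (bottom). Blue points are AP-1 genes with 95% counting intervals, placed at arbitrary height. For H3K27ac, FOS and FOSL1 lie to the right of the bulk of genes, and for H3K4me3 FOSL1 does.

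Rank within the list depended on how peaks were ranked. By fold enrichment over local background, the percentile of the strongest H3K27ac region was lower in siDLEU1 cells at 8 of 9 genes, against 62.6% of all genes, and the median change was −8.00 points against −4.34. By summit fragments, it was lower at 6 of 9, against 70.3%, and the median change was −14.2 against −4.32. FOSL1 went from the 67.8 to the 38.6 percentile by fold enrichment and from the 76.6 to the 97.0 percentile by fragments. The local background of its region, as recovered from the peak list, was 1.0 in siCONT and 3.0 in siDLEU1 cells, in fragments scaled to the control library. JUN went from 89.6 to 61.1 by fold enrichment and from 83.8 to 86.6 by fragments, with a local background of 0.561 at its siCONT summit. In siDLEU1 cells the background was 1.0 at the summit at −774, which gave the percentile by fold enrichment, and 2.0 at the summit at +462, which held the most fragments. The other genes that were lower by fold enrichment (FOSB, FOSL2, JUNB, JUND, ATF3 and BATF3) were lower by fragments too, and FOS was higher by both, from 56.0 to 70.2 and from 63.2 to 83.1. For FOSL1 and JUN the direction of the rank is thus not settled by these lists, and the part of the local background in it was not tested.

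**Figure D5:**
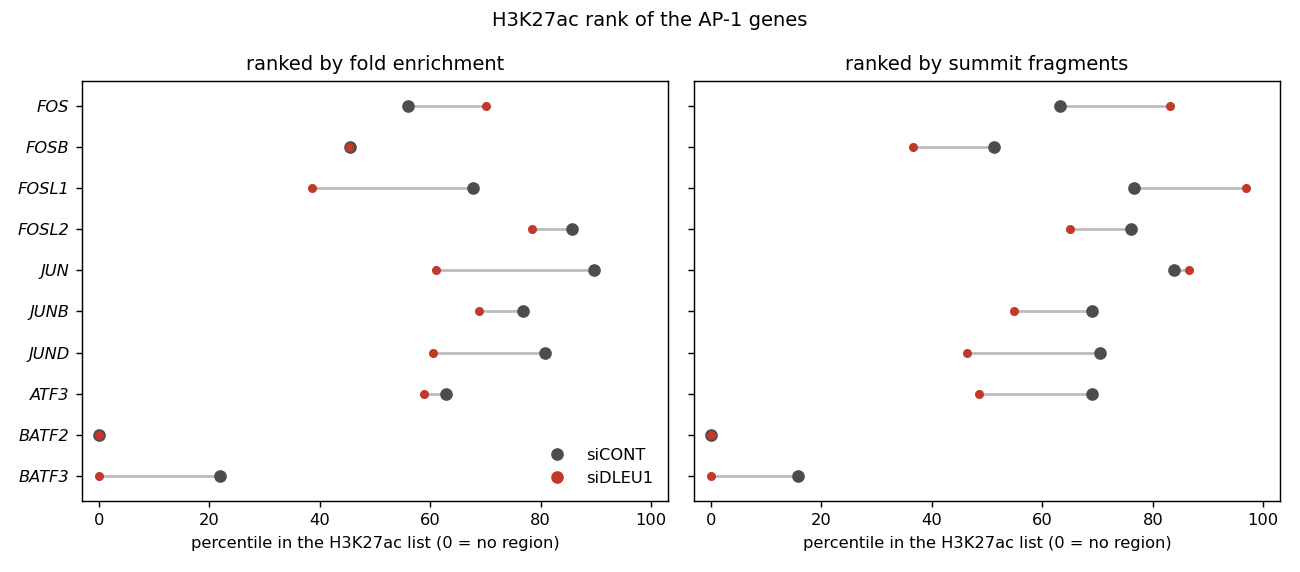
Percentile of each gene's strongest H3K27ac region within its list, ranked by fold enrichment (left) and by summit fragments (right), with siCONT in grey, siDLEU1 in red and 0 for no region. FOSL1 is at 67.8 and 38.6 on the left and at 76.6 and 97.0 on the right.

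H3K4me3 at the AP-1 genes differed less. Regions numbered 36 in siCONT and 37 in siDLEU1 cells, and they covered 36535 and 31982 bp, a ratio of 0.875 against 0.884 over all protein-coding genes. Covered length was over 1.5 times shorter in 4 of 9 genes (FOS, FOSB, ATF3 and BATF2), against 16.9% of all genes, and over 1.5 times longer in 0 of 9, against 9.54%. FOS, with a ratio of 0.65, was just past the limit for shorter. Of the 36 siCONT regions, 25 (69.4%, 53.1 to 82.0) were overlapped in siDLEU1 cells, against 76.4% of all siCONT regions. The median ratio of summit coverage was 1.07 over 8 genes, against 1.25 over 13331 genes. It was over 1.5 times higher at 1 of 8, against 21.2% of all genes, and over 1.5 times lower at 0 of 8, against 1.78%.

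FOSL1 had the highest H3K4me3 ratio of the 8 genes. Its summit coverage was 62.2 in siCONT and 124 in siDLEU1 cells, a ratio of 2.0 (1.59 to 2.51), and 96.6% of genes had a lower one. The region itself was 2319 bp wide in siCONT and 2215 bp in siDLEU1 cells, and both ran from just upstream of the TSS into intron 1. A siDLEU1 region of 1429 bp from 65658126 to 65659554 on chromosome 11 also touched the far end of the FOSL1 window, at exon 4, but it lies at the start of the neighbouring gene CCDC85B and overlaps a siCONT region of 1322 bp with 112 fragments that lies outside the window. JUN had 79.3 and 115.8, a ratio of 1.46 (1.18 to 1.81), and FOS had 67.4 and 86.5, a ratio of 1.28 (1.01 to 1.64). The intervals of these 3 genes lay over 1, as did those of 38.5% of all genes, and that of FOSL1 also lay over the median of all genes.

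At the other 5 genes with H3K4me3 in both lists the intervals of the highest-summit ratio included 1. JUNB had the highest H3K4me3 summit in siCONT cells, 95.4 against 102.1, a ratio of 1.07 (0.863 to 1.33). FOSL2 had 84.03 and 89.8, a ratio of 1.07 (0.849 to 1.34) that sets a summit at +1535 against one at −463, FOSB 30.9 and 29.3, a ratio of 0.949 (0.634 to 1.41), and ATF3 59.8 and 59.8, a ratio of 1.0 (0.756 to 1.32). JUND had 83.5 and 75.5, a ratio of 0.903 (0.708 to 1.15), whose interval lay under the median of all genes. BATF2 had a region of 524 bp from 64763924 to 64764447 on chromosome 11, over the TSS and exon 1 with 42 fragments, in siCONT cells and none in siDLEU1 cells, which was 1 of 9 genes here and 2.81% of all genes. BATF3 had no H3K4me3 region in either list, so a gain from none was seen at 0 of 1 gene, against 7.23% of all genes without H3K4me3 in siCONT cells. The percentile of the strongest H3K4me3 region was lower by fold enrichment at 4 of 9 genes, against 48% of all genes, and by fragments at 6 of 9, against 46.9%.

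Place by place, H3K4me3 was higher at some regions of these genes and lower at others. Of the 25 matched siCONT regions, 10 had a ratio with its interval over 1, against 32% of all matched regions, and 3 had one under 1, against 4.49%. The 10 lay at FOS, FOSL1, FOSL2, JUN and JUNB, and the 3 lay upstream of ATF3. At FOSL2 the ratio was 1.75 (1.35 to 2.27) at −444, 1.35 (1.05 to 1.74) at −1953 and 2.53 (1.63 to 3.99) at the weaker +16208, where fragments numbered 33 and 61. At JUNB it was 1.42 (1.11 to 1.82) at +337 and 1.41 (1.10 to 1.83) at −5550. The first of these regions has the start of HOOK2 within 1 kb. The second has its summit beyond the 5 kb upstream and the start of another annotated gene within 1 kb. Neither value can be assigned to JUNB alone. At JUN it was 2.16 (1.61 to 2.91) at +250, with 78 and 123 fragments. The JUN region at +1845, with a ratio of 4.11, is counted among the 10 but met the same siDLEU1 region. Its ratio thus compares different places and is not a separate value.

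The layout of H3K4me3 regions also differed at some genes. At FOS, 1 siCONT region of 2200 bp was replaced in siDLEU1 cells by 3 regions of 323, 328 and 779 bp, of which the widest, with its summit at −147, held 133 fragments. At FOSB, 4 regions covering 1798 bp in siCONT cells were 2 regions covering 931 bp in siDLEU1 cells. At ATF3, the region in exon 1 and intron 1 was 1123 bp wide in siCONT and 1055 bp in siDLEU1 cells, at equal summit coverage. The upstream regions of ATF3 had ratios of 0.469 at −691, 0.659 (0.435 to 0.982) at −2705 and 0.331 at −12017, where a region of 1983 bp was met by regions of 396 and 454 bp, and the siCONT region at −41772 had no counterpart. The H3K27ac region upstream of ATF3 was also narrower in siDLEU1 cells, as given above. JUND kept 3 regions in both, in the same places, and covered 2476 and 2386 bp.

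Genes around AP-1 were compared by lists of textbook members. The shares in brackets and the second median of each pair are those of all genes. Among 21 other bZIP genes, covered H3K27ac was over 1.5 times shorter in 6 of 19 genes with the mark (31.5% of all genes) and longer in 0 (0.573%), and the median summit ratio was 0.609 against 0.617. CEBPB went from the 91.6 to the 42.5 percentile by fold enrichment and JDP2, a repressor of AP-1, from 72.1 to 45.1, while ATF4, the integrated stress response factor, went from 43.8 to 75.2 and MAFG from 61.9 to 88.4. These percentiles carry the ranking caveat of FOSL1, and the change of ATF4 was −24.8 points when ranked by fragments. Among 22 other immediate early genes, covered length was over 1.5 times shorter in 8 of 21 (31.5% of all genes) and longer in 0 (0.573%), and the median summit ratio was 0.578 against 0.617. GADD45B had summit coverages of 83.4 and 36.5, a ratio of 0.438 (0.322 to 0.592), and NR4A1, an orphan nuclear receptor, 33.6 and no region. BTG2, an antiproliferative gene, had 95.5 and 64.2, a ratio of 0.672, and PLK3, a stress kinase, 47.1 and 50.1, a ratio of 1.06 (0.774 to 1.47).

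Upstream of AP-1, 24 kinase genes of the ERK, JNK and p38 cascades had shorter covered H3K27ac, by over 1.5 times, in 6 of 23 genes with the mark (31.5% of all genes), longer in 0 (0.573%), and a median summit ratio of 0.590 against 0.617. MAPK3, which encodes ERK1, had 53.1 and 25.6, a ratio of 0.481 (0.330 to 0.696), and ARAF 28.2 and 14.1, a ratio of 0.499 (0.296 to 0.828). MAP2K4 (0.701) and MAP2K1 (0.640), kinases of the JNK and ERK cascades, had the largest gains in percentile by fold enrichment of this list, and by fragments their changes were 4.19 and −3.56 points. Among 18 feedback genes, which encode phosphatases and inhibitors of these kinases, 6 of 15 were over 1.5 times shorter (31.5% of all genes) and 0 longer (0.573%), and the median ratio was 0.596 against 0.617. SPRY1 (0.462) and DUSP14 (0.508) had the largest falls in percentile by fold enrichment, and DUSP4 (0.862) and DUSP6 (0.768), ERK phosphatases, the largest gains. These ranks carry the same ranking caveat.

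Downstream, 24 genes often given as AP-1 targets had H3K27ac in 10 in siCONT and 11 in siDLEU1 cells, with covered length over 1.5 times shorter in 2 of 11 (31.5% of all genes) and longer in 1 of 11 (0.573%), and a median summit ratio of 0.683 against 0.617. PLAU, which encodes urokinase, had 118 and 51.7, a ratio of 0.437 (0.338 to 0.562), and TIMP1 21.5 and 14.1, a ratio of 0.655 (0.377 to 1.13). CCND1, which encodes cyclin D1, had 127 and 100.2, a ratio of 0.788 (0.642 to 0.969), and KRT6A, a keratin of activated keratinocytes, 23.5 and 33.9, a ratio of 1.44 (0.942 to 2.24). For H3K4me3, the median summit ratio was 1.28 in the other bZIP genes, 1.16 in the immediate early genes, 1.17 in the kinases, 1.23 in the feedback genes and 1.20 in the targets, each beside 1.25 over all genes. None of these medians was tested against the AP-1 genes.

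Squamous epithelial markers carried the marks more often than blood cell markers did. Of 12 squamous markers, 12 carried H3K27ac in siCONT and 11 in siDLEU1 cells, and 12 carried H3K4me3 in both. Of 10 blood cell markers, 1 carried H3K27ac and 5 carried H3K4me3 in each. Of all 20090 protein-coding genes, 13056 carried H3K27ac in siCONT and 12321 in siDLEU1 cells. H3K4me3 was carried by 13717 and 13792 of them. The recovered mean was 1.49 and 1.92 fragments per base in the siCONT and siDLEU1 H3K27ac libraries and 2.11 and 1.54 in the H3K4me3 libraries, so the lower H3K27ac values came from the deeper library of the pair and the higher H3K4me3 values from the shallower one.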

How the data were processed

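H3K27ac and H3K4me3 ChIP-seq of HSC3 cells, 1 library per siRNA and mark, was analysed from peak lists. Reads from an Ion Proton were aligned by the authors to hg19 (bowtie2), and MACS2 was run by them on each library. Settings, versions and duplicate handling are not given in the sources used here. The deposited lists give the ratio of fold enrichment over local background and −log10 p and q, and the score column, a display value, was not used. The 2 input libraries were not analysed here. Peak ends fitted the GRCh37 chromosome lengths.

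Autosomal and X-linked peaks were set against GENCODE gene models. Fragments at each summit and the local background were solved from fold enrichment and p, which MACS2 computes from a whole number of fragments, and the p of 100% of peaks was matched. This assumes the default MACS2 pseudocount of 1, and the control library used in peak calling is not given in the sources used here. The solver was tested on simulated data. Depth is given as mean fragments per base. Ratio intervals are exact conditional binomial (Clopper-Pearson), those of coverage exact Poisson and those of shares Wilson, all at 95% and for counting error only. Motifs were counted by letters, with TGACGT and TGACATCA added after reading, and the promoters of FOSL1 and BATF2 are not reported here. The genes named are the 10 AP-1 genes and, in each list other than the markers, the 2 largest falls and 2 largest rises in H3K27ac percentile. CYR61, CTGF and LOR were matched as CCN1, CCN2 and LORICRIN. Members and lists were chosen with earlier results of these data known. CCDC85B, LINC01135 and FOSL2-AS1 were named after their positions were seen. Computation used scipy 1.17.1, pandas 2.3.3 and numpy 2.4.6 under Python 3.11.15.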

Additional observations from a re-analysis of the deposited data

How the results depend on the processing

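No paired analysis was possible because each siRNA and mark has a single library, and for the same reason none could be left out. The direction of every H3K27ac summary was kept under the alternatives run. The H3K27ac covered length ratio was 0.709 with the gene body alone, 0.673 within 1 kb of a TSS, 0.631 with 10 kb upstream, 0.669 at a −log10 q of at least 10, 0.689 with regions within 1 kb stitched and 0.682 with equal numbers of regions. That of H3K4me3 was 0.792, 0.876, 0.917, 0.827 and 0.876 under the first 5 of these, and did not move with equal numbers. Within 1 kb of a TSS, covered length was over 1.5 times shorter in 4 of 9 genes for H3K27ac and 2 of 9 for H3K4me3. The share of all genes in that window is not given here. H3K27ac regions in siCONT and siDLEU1 cells numbered 14 and 11 in the gene body, 15 and 11 at the stricter q, and 12 and 9 when stitched. H3K4me3 regions numbered 19 and 17 within 1 kb of a TSS, 21 and 18 at the stricter q, and 15 and 16 when stitched. When the overlap had to reach 50% of each region, 47.2% of siCONT H3K4me3 and 47.8% of siCONT H3K27ac regions were retained, and the latter was 73.3% at the stricter q and 73.7% with equal numbers. The H3K27ac median percentile change was −17.7 at the stricter q, −9.76 ranked by −log10 p and −14.2 ranked by fragments. That of H3K4me3, 0.344 as reported, was 1.23 with the gene body alone and with 10 kb upstream and 4.84 at the stricter q, and turned to −1.28 ranked by −log10 p and −2.31 ranked by fragments, so it has no settled direction.

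Scaling by the median ratio of all genes, in place of depth, moved the median summit ratio of H3K27ac to 0.911 and turned that of H3K4me3 to 0.858, and the window of 1 kb around TSSs gave 1.14 for H3K4me3. On the scale of the all-gene median the H3K27ac ratios of FOS (1.39), FOSL1 (1.52) and JUN (1.08) turned above 1, and the H3K4me3 ratios of FOSL2 (0.858), JUNB (0.859) and ATF3 (0.803) below 1. These turns follow from the scale, which divides every ratio of a mark by the same number. Regions called with 1 siRNA alone held 18 to 51 fragments at the summit, where counting error is largest.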

Other observations

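Outside each gene's own window, regions within 100 kb of its canonical TSS and over 1 kb from any annotated TSS were counted as distal. This count was added after the data were seen. H3K27ac had 13 distal regions covering 4045 bp in siCONT cells and 4 covering 1443 bp in siDLEU1 cells. Of the 13, 5 were overlapped in siDLEU1 cells, and 4 of the 4 siDLEU1 regions lay over siCONT ones, against 43.2% of 3013 siCONT and 95.7% of 1573 siDLEU1 H3K27ac regions over 1 kb from any TSS in the whole lists. H3K4me3 had 55 and 62 distal regions covering 37526 and 37581 bp. Of the 55, 47 were overlapped in siDLEU1 cells, against 69.1% of 34762 such siCONT regions in the whole list. Of the 62, 46 lay over siCONT regions, against 71.0% of 34738. The distal H3K4me3 regions of BATF3, 2 in siCONT and 1 in siDLEU1 cells, lie inside the ATF3 window and were also counted there. At JUN, the only distal H3K27ac region, −32.1 kb from the TSS with 69 fragments in siCONT cells, had no siDLEU1 counterpart, while distal H3K4me3 regions numbered 3 in siCONT and 12 in siDLEU1 cells. At FOSB, distal H3K27ac regions numbered 4 and 1, and the strongest, −28.3 kb from the TSS in siCONT cells, was present in both, with 63 and 50 fragments. FOSL2, ATF3, BATF2 and BATF3 had no distal H3K27ac region in either list. Distal counts of single genes were not made over all genes. No link between a distal region and a gene was measured.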
